A study of Rattus norvegicus with 8 samples.

Results

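Genes of DNA replication and of the passage from G1 into S phase were examined in whole kidneys of 4-week-old HSRA rats, a model of unilateral renal agenesis derived from heterogeneous stock animals. The 4 HSRA-S rats were born with a solitary kidney (congenital solitary kidney), and the 4 HSRA-C rats, the control, had both kidneys. All animals belong to the HSRA model, so the control animals share its background. Each sample is independent and was hybridised to a separate Rat Gene 1.1 ST array (Affymetrix), and neither sex nor litter is stated in the labels. The gene set was a list of 39 symbols chosen by function. It and the other gene lists below were chosen with earlier results of these data known, so counts over them are descriptions. A gene was measured where a probe set carried that symbol alone, which held for 36 of the 39 genes and not for Rrm1, Tk1 and Ccnd3. Gins1 lay among the dimmest 20% of all genes and was not tested, which left 35 tested members among 13796 tested genes.

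Before a cell copies its DNA, the origin recognition complex, Cdc6 and Cdt1 load the ring of MCM proteins onto replication origins, a step called licensing. At the start of S phase, cyclin-dependent kinases and E2F transcription factors turn on this machinery, Cdc45 and the GINS proteins convert the ring into an active helicase, and polymerases, the sliding clamp PCNA and its loader copy the strands. Ribonucleotide reductase and thymidylate synthase supply the building blocks, while histone chaperones wrap the new DNA. Once nephrons have formed, dividing cells are a small part of the kidney, so whole-kidney levels of these genes combine those few cells with a basal level in resting ones. In bulk tissue, fewer dividing cells and less RNA per cell cannot be told apart.

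The promoters of these genes are known for E2F sites, and 4 are shown to set the member with the clearest difference between the groups beside subunits of the MCM helicase. The sequences are the 250 bases before the annotated start in RefSeq, build GRCr8, given 5′ to 3′ on the strand of the gene, with E2F letters in capitals. The letters searched were TTTGGCGC, TTTCGCGC, TTTGCCGC and TTTCCCGC on both strands, and matches may overlap, as they do in Mcm5 and Mcm6, or share bases with other letters searched, as with CCAAT in Mcm7. The first gene, Nasp, had the clearest difference of all members and holds no such letters, while Mcm5, Mcm6 and Mcm7 hold them and differed by 0.14 or less on the log2 scale. Mcm2 also holds such letters, Mcm3 has a window without them, and for Mcm4 no window was used here.
Nasp (chr5:135319592-135319841, minus strand): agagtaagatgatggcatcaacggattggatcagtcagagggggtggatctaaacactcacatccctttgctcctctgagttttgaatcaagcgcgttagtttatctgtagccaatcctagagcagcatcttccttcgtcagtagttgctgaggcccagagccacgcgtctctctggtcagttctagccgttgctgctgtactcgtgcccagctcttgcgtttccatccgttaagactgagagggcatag
Mcm5 (chr19:13488563-13488812, plus strand): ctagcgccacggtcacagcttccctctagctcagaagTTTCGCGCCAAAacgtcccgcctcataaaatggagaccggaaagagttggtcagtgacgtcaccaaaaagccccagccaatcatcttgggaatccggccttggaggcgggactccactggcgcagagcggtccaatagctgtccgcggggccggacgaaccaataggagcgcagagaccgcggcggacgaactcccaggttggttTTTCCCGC
Mcm6 (chr13:42404353-42404602, minus strand): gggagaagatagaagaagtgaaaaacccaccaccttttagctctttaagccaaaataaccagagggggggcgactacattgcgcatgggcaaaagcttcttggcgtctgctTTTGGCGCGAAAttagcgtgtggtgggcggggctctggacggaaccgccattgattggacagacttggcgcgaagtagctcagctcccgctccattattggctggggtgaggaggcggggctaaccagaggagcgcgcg
Mcm7 (chr12:22163179-22163428, minus strand): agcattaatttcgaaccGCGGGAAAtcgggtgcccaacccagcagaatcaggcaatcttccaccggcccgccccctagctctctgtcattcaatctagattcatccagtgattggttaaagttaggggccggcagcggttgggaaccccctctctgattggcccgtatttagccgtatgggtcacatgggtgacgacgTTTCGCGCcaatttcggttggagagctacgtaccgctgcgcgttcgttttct
Of the 31 members with a window in the table, 8 held E2F letters (25.8%), against 525 of all 27457 genes (1.91%). These were Gins1, Mcm2, Mcm5, Mcm6, Mcm7, Pola1, Tyms and Uhrf1. The 7 of them that were tested had log2 differences between 0.01 and 0.14 (HSRA-S minus HSRA-C). All 7 were higher, with a median of 0.083. The 20 tested members whose window lacks these letters had differences between -0.12 and 0.35, with 13 higher and a median of 0.046. Nasp alone set that upper end, and the next was Rfc3 at 0.15. Over all tested genes 55.5% were higher. Without HSRA-C replicates 3 and 4, which are described in the next paragraph, these ranges were -0.13 to 0.15 and -0.26 to 0.33. Then 4 of 7 and 8 of 20 were higher, with medians of 0.024 and -0.020, and 55.2% of all genes were higher. Neither range covers Rrm2, Ccnd1, Ccnd2, Ccne2, E2f1, Cdc6, Orc1 and Mcm4, which had no window. Among these are the largest differences of the set in each direction, Rrm2 (0.65) and Ccnd2 (-0.20), and also Ccnd1 (0.25). The CCAAT letters, a common promoter element searched on both strands, stood in 18 of 31 member windows (58.1%) and in 36.1% of all genes, and the mitotic CHR letters, TTTGAA or TTTCGAA, in 4 of 31 (12.9%) and 17.9% of all genes. A match of letters is a description of the window and not a site.

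The tissue label was borne out by kidney genes: Lrp2 of the proximal tubule lay between 10.99 and 11.34, Umod of the thick limb between 11.55 and 11.70, Aqp2 of the collecting duct between 9.70 and 10.66 and Nphs1 of podocytes between 6.64 and 6.99. Median intensities were 30.8 to 32.3 on the 8 arrays. HSRA-C replicates 3 and 4 stood apart in the 7 tested collecting duct and medulla genes, with list means of 8.68 and 8.83, against 7.78 and 8.11 in the other controls. HSRA-S replicate 4 stood apart on the low side, with a list mean of 7.29 against 8.11 to 8.18 in HSRA-S replicates 1 to 3. All 7 genes of this list had a lower mean in HSRA-S, with a median log2 difference of -0.38. Of these, 1 had a limma unadjusted p under 0.05 and 0 passed adjustment, and 4.69% of all genes were lower at that unadjusted p. Without HSRA-C replicates 3 and 4, 3 of the 7 genes were higher, with a median of -0.03. Slc14a2, the urea transporter of the inner medulla, was at 8.86 and 9.0 in HSRA-C replicates 3 and 4 and at 4.44 in HSRA-S replicate 4, while the others ran from 5.99 to 7.22. Aqp4 was at 7.31 and 7.57 in those controls and between 5.22 and 6.79 elsewhere. HSRA-S replicate 4 was also the lowest HSRA-S sample in Rrm2 and in the mean of the mitosis genes. The part of this in the member values was not tested, and values without HSRA-C replicates 3 and 4 are given with the results whose direction or count they change. Those fits keep only HSRA-C replicates 1 and 2 as controls, so they rest on fewer arrays. HSRA-S replicate 4 stayed in them. When it alone was left out, 25 of 35 members were higher, with a median log2 difference of 0.05, and 7896 of 13796 genes were higher.

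The replication and G1/S genes differed between the solitary and the control kidneys by about as much as genes in general, with a median absolute log2 difference of 0.076 against 0.079 over all tested genes. Of the 35 tested members, 0 passed at an adjusted p under 0.05 in either direction by limma with Benjamini-Hochberg adjustment over all 13796 genes, where the background was 0% in each direction as well. At an unadjusted p under 0.05 there were 3 members, Nasp, Rrm2 and Ccnd1, all higher in HSRA-S. That is 8.57% of the members, against 12.1% of all genes in either direction and 7.36% on the higher side. The median log2 difference was 0.06 over the members and 0.02 over all tested genes, and 26 of 35 members (74.3%) stood on the higher side, against 55.5% of all genes. Without HSRA-C replicates 3 and 4, 17 of 35 members were higher, the median became -0.0048, and 2 members had an unadjusted p under 0.05, Nasp on the higher side and Rfc4 on the lower side. Over all genes 55.2% were then higher and 4.85% had an unadjusted p under 0.05.

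**Figure D1:**
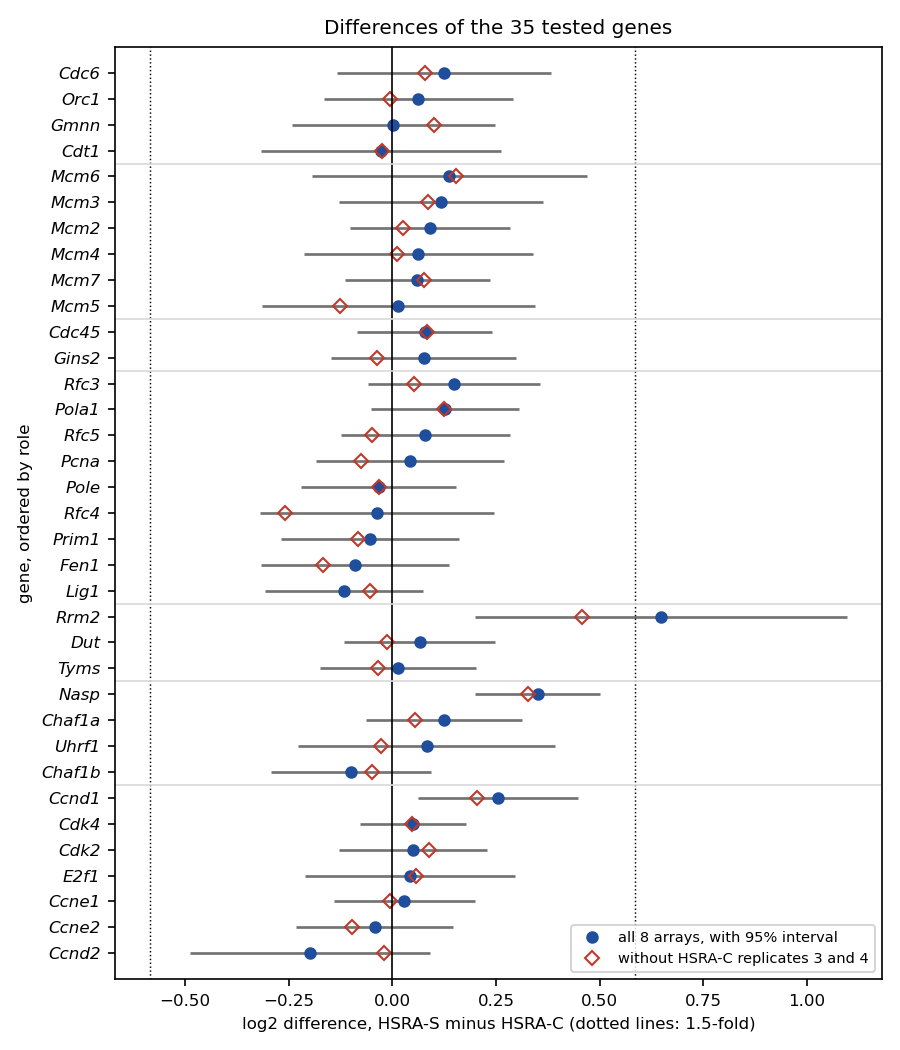
Log2 differences (HSRA-S minus HSRA-C, x axis) of the 35 tested genes, ordered by role from licensing at the top to cyclins at the bottom. Filled circles with bars are the fit of all 8 arrays with its 95% interval, open diamonds the values without HSRA-C replicates 3 and 4, and dotted lines mark 1.5-fold; 34 of 35 intervals lie between the dotted lines, and Rrm2 is the exception.

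The precision of 4 against 4 arrays bounds these differences. For 34 of 35 members the 95% interval of the fit lay within 1.5-fold in both directions (97.1%, against 94.3% of all tested genes), and the interval of Rrm2 reached beyond it.

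Among the licensing genes, 3 of 4 were higher and 1 lower, with log2 differences between -0.03 and 0.12. Cdc6, the ATPase that brings the MCM ring to the origin, was at log2 4.39, 4.27, 4.57 and 4.03 in HSRA-S replicates 1 to 4 and at 4.10, 4.37, 4.24 and 4.05 in HSRA-C replicates 1 to 4. Its groups overlapped over most of their range, with the lowest sample of all in HSRA-S, and the difference was 0.12 (SE 0.12; limma adjusted p = 0.691). Cdt1, the partner of Cdc6 in loading, was at 4.26, 4.59, 4.96 and 4.44 in HSRA-S and at 4.52, 4.66, 4.52 and 4.67 in HSRA-C. The HSRA-S samples were both the lowest and the highest of the 8, so HSRA-S had the wider SD, 0.30 against 0.084 (n = 4 each), around a difference of -0.03 (SE 0.13). Gmnn, the inhibitor that blocks Cdt1 once S phase has begun, had equal means of 4.81 in both groups (SD 0.21 and 0.14, n = 4 each). Orc1, a subunit of the origin recognition complex, was at 3.75 ± 0.18 and 3.68 ± 0.14 (SD, n = 4 each), just above the limit of 3.63 for dim genes, and the difference, 0.06, fell to -0.0048 once HSRA-C replicates 3 and 4 were left out.

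The 6 subunits of the MCM helicase, Mcm2 to Mcm7, were all on the higher side in HSRA-S, by 0.01 to 0.14 on the log2 scale, with limma adjusted p-values from 0.698 to 0.977. Mcm3, the subunit with the smallest p, was at 5.0, 4.81, 5.15 and 5.16 in HSRA-S and at 4.82, 5.08, 5.08 and 4.69 in HSRA-C. HSRA-S replicates 3 and 4 were above all controls and replicates 1 and 2 within their range, and the difference of 0.12 (SE 0.11) was smaller than the SD of either group (0.16 and 0.19, n = 4). Mcm5 had the smallest difference, 0.01 (SE 0.15), with HSRA-S samples from 4.92 to 5.66 and HSRA-C samples from 5.16 to 5.54. Mcm6 had the widest, 0.14 (SE 0.15), with HSRA-S replicate 3 at 6.10 and HSRA-C replicate 4 at 5.40 as the ends of its range. The interval of the MCM genes that reached highest was that of Mcm6, up to 0.47. Without HSRA-C replicates 3 and 4 the difference of Mcm5 was -0.13, that of Mcm2 0.02 and that of Mcm4 0.01, while Mcm6 was at 0.15. Leaving out HSRA-S replicate 3 alone put Mcm4 at -0.03 and Mcm5 at -0.09.

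Among the factors that activate the helicase, Cdc45 was at 4.67, 4.78, 4.69 and 4.56 in HSRA-S and at 4.49, 4.70, 4.68 and 4.53 in HSRA-C, with overlapping groups and a difference of 0.08 (SE 0.073). The GINS subunit Gins2 was at 5.19 ± 0.095 and 5.11 ± 0.20 (SD, n = 4 each). In Gins2 the lowest sample was HSRA-C replicate 4 at 4.82, and without HSRA-C replicates 3 and 4 the difference of 0.08 turned to -0.04. The dim Gins1, a second GINS subunit, ran from 3.23 to 3.96 in HSRA-S and from 3.23 to 3.78 in HSRA-C, and RMA values this low are compressed.

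The genes of DNA synthesis divided between the sides, with 4 of 9 higher and 5 lower in HSRA-S and a median log2 difference of -0.03. Pola1, the catalytic subunit of the polymerase that starts each new strand, was at 6.25, 6.12, 6.47 and 6.22 in HSRA-S and at 6.07, 6.21, 6.16 and 6.11 in HSRA-C. HSRA-S replicate 3 was the highest sample, and replicate 2 lay within the control range, for a difference of 0.13 (SE 0.080; limma adjusted p = 0.547). Prim1, the primase that works with it, was at 6.79, 7.03, 7.26 and 6.99 in HSRA-S and at 7.03, 7.17, 7.10 and 6.99 in HSRA-C, a difference of -0.05 (SE 0.096). Pole, the polymerase of the leading strand, was at 5.54, 5.62, 5.70 and 5.34 against 5.52, 5.64, 5.65 and 5.51, a difference of -0.03 (SE 0.084). In both of these genes the HSRA-S samples held the lowest and the highest value of the 8.

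Pcna, the sliding clamp and a common stain for dividing cells, had means of 7.60 ± 0.11 and 7.55 ± 0.20 (SD, n = 4 each). Its highest sample was a control, HSRA-C replicate 2 at 7.80, and its lowest was HSRA-C replicate 4 at 7.32. The difference of 0.04 turned to -0.08 without HSRA-C replicates 3 and 4. Of the subunits of the clamp loader, Rfc3 differed by 0.15 (SE 0.093) and Rfc5 by 0.08 (SE 0.091), and without those controls by 0.05 and -0.05. Rfc4 was at 5.27, 5.03, 5.03 and 5.01 in HSRA-S and at 5.32, 5.37, 5.02 and 4.78 in HSRA-C, so that the controls spanned the whole range and the difference was -0.04 (SE 0.13). Without HSRA-C replicates 3 and 4, which were its lowest controls, that difference became -0.26 (SE 0.094; limma adjusted p = 0.977). Fen1, the nuclease that trims the primers of the lagging strand, was at 4.49, 4.26, 4.05 and 4.38 in HSRA-S and at 4.51, 4.42, 4.21 and 4.40 in HSRA-C, a difference of -0.09 (SE 0.10). A second, dimmer probe set of Fen1 differed by 0.13, in the opposite direction. Lig1, the ligase that joins the lagging strand, was at 6.59, 6.63, 6.85 and 6.55 in HSRA-S and at 6.60, 6.82, 6.84 and 6.83 in HSRA-C. In Lig1 3 samples of each group sat close together, low in HSRA-S and high in HSRA-C, while the remaining sample lay with the other group, and the difference was -0.12 (SE 0.086; limma adjusted p = 0.604).

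The nucleotide supply held the largest difference of the set. Rrm2, the regulated subunit of ribonucleotide reductase, was at 6.98, 6.91, 6.87 and 6.39 in HSRA-S and at 5.91, 6.75, 6.09 and 5.80 in HSRA-C. HSRA-S replicates 1 to 3 were the highest samples, HSRA-C replicate 2 came next, and HSRA-S replicate 4 lay between that control and the others, so the groups overlapped. The means were 6.79 ± 0.27 and 6.14 ± 0.42 (SD, n = 4 each), a 1.57-fold higher level in HSRA-S with a log2 difference of 0.65 and a 95% interval from 0.20 to 1.10 (limma adjusted p = 0.333). A second probe set of Rrm2 gave 6.57 ± 0.23 and 5.96 ± 0.42 (SD, n = 4 each), a difference of 0.61. For the first probe set, leaving out each sample in turn gave differences between 0.54 and 0.85. It differed by 0.46 (SE 0.24) without HSRA-C replicates 3 and 4, with a limma unadjusted p of 0.0940. Tyms, the thymidylate synthase, differed by 0.01 (SE 0.084) and Dut, the enzyme that removes dUTP, by 0.07 (SE 0.082), with overlapping groups in both. The differences were -0.04 and -0.01 without HSRA-C replicates 3 and 4.

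Of the genes that rebuild chromatin behind the fork, Nasp was the only member whose groups did not overlap. Groups that did not overlap were found with HSRA-S higher in 1 member (2.86%) and 4.12% of all genes, and with HSRA-S lower in 0 members and 2.17% of all genes. Nasp, a chaperone of histones H3 and H4, was at 5.27, 5.17, 5.31 and 5.17 in HSRA-S and at 4.80, 5.0, 4.82 and 4.90 in HSRA-C. Every solitary kidney was above every control, and the spread within groups was narrow, with SDs of 0.073 and 0.090 (n = 4 each). The level was 1.27-fold higher in HSRA-S, with a log2 difference of 0.35 and a 95% interval from 0.20 to 0.50 (limma adjusted p = 0.331). Leaving out each sample in turn gave differences between 0.32 and 0.39, and without HSRA-C replicates 3 and 4 it was 0.33 (SE 0.089). The chromatin assembly factor subunit Chaf1a was at 4.68 ± 0.11 and 4.56 ± 0.14 (SD, n = 4 each). Its partner Chaf1b was at 4.27, 4.35, 4.49 and 4.58 in HSRA-S and at 4.35, 4.59, 4.57 and 4.58 in HSRA-C, a difference of -0.10 (SE 0.086) in the other direction. Uhrf1, which carries DNA methylation over to the new strand, varied among the controls from 4.64 to 5.37 and among the solitary kidneys from 4.94 to 5.13. Its difference of 0.08 turned to -0.03 without HSRA-C replicates 3 and 4.

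**Figure D2:**
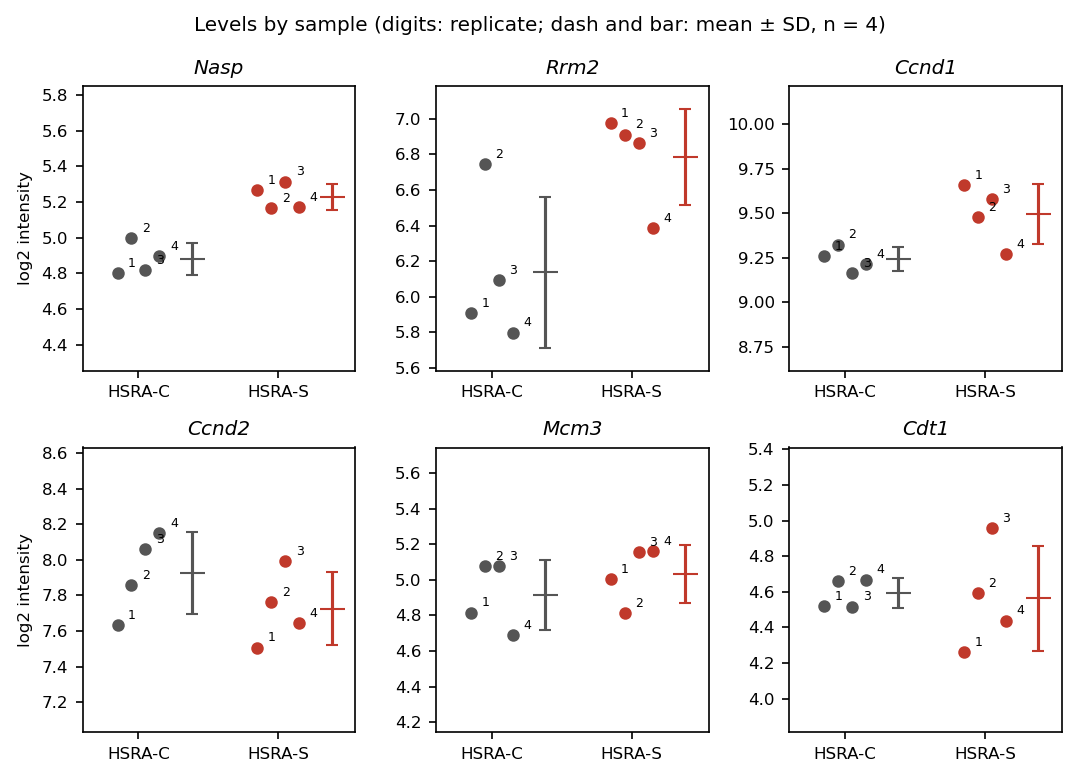
Log2 intensity (y axis, the same span in every panel) of 6 genes in each HSRA-C and HSRA-S sample; points carry the replicate number, and dash and bar give mean ± SD (n = 4). Nasp separates the groups, and Rrm2 has HSRA-C replicate 2 at 6.75 among the HSRA-S samples. The group means of Ccnd1 and Ccnd2 differ in opposite directions, but their groups overlap, as do those of Mcm3 and Cdt1.

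The D-type cyclins, which couple growth signals to the G1 kinases, did not share a direction. Ccnd1 was at 9.66, 9.48, 9.58 and 9.27 in HSRA-S and at 9.26, 9.33, 9.17 and 9.22 in HSRA-C. HSRA-S replicates 1 to 3 were above all controls and replicate 4 lay among them, for a 1.19-fold higher level (log2 difference 0.25, SE 0.087; limma adjusted p = 0.346). Leaving out HSRA-C replicates 3 and 4 gave 0.20 (SE 0.11), with a limma unadjusted p of 0.110. Ccnd2 was at 7.51, 7.76, 7.99 and 7.64 in HSRA-S and at 7.63, 7.86, 8.06 and 8.15 in HSRA-C. Its highest samples were HSRA-C replicates 3 and 4, and the difference was -0.20 (SE 0.13; limma adjusted p = 0.562), which became -0.02 without them. The G1 kinase Cdk4 was the steadiest member, at 9.64 ± 0.063 and 9.59 ± 0.037 (SD, n = 4 each), a difference of 0.05.

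Of the genes that act at the G1/S boundary itself, none had a difference above 0.05 in either direction with all 8 arrays. Ccne1 and Ccne2, the E cyclins that start S phase, differed by 0.03 (SE 0.076) and -0.04 (SE 0.085), and Ccne1 by -0.0065 without HSRA-C replicates 3 and 4. Ccne2 was at 4.97, 4.98, 5.27 and 5.02 in HSRA-S and at 5.06, 5.25, 5.09 and 5.01 in HSRA-C, with HSRA-S replicate 3 and HSRA-C replicate 2 as its high samples. Cdk2, their kinase, differed by 0.05 (SE 0.080). E2f1, the transcription factor that drives many of the genes above, differed by 0.04 (SE 0.11). It ran from 4.97 to 5.41 in HSRA-S and from 4.96 to 5.29 in HSRA-C. Beyond 0.05 in the fit without HSRA-C replicates 3 and 4 were Ccne2 (-0.097, SE 0.11), Cdk2 (0.089, SE 0.10) and E2f1 (0.057, SE 0.14).

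The median residual SD within the groups was 0.14 over the 35 members, against 0.12 over all tested genes, and 27 of 35 lay above that overall median. The difference exceeded the gene's own residual SD in 6 members (17.1%, against 33.2% of all genes), namely Nasp, Rrm2, Ccnd1, Pola1, Rfc3 and Chaf1a. Rrm2 had the widest spread (0.35), followed by Mcm6 (0.26), Mcm5 (0.25) and Uhrf1 (0.24), and Cdk4 the narrowest (0.052). The spread followed particular animals across roles. HSRA-S replicate 3 was the highest of the 8 samples for 14 of 35 members, and HSRA-C replicate 2 stood above the gene's own mean for 31 of 35. HSRA-C replicate 4 was the lowest sample for 12 members and HSRA-S replicate 1 for 8. Averaged over the members, the deviation from each gene's mean was -0.04, 0.03, 0.13 and 0.0015 in HSRA-S replicates 1 to 4 and -0.09, 0.10, -0.01 and -0.13 in HSRA-C replicates 1 to 4. High and low animals were thus found in both groups.

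**Figure D3:**
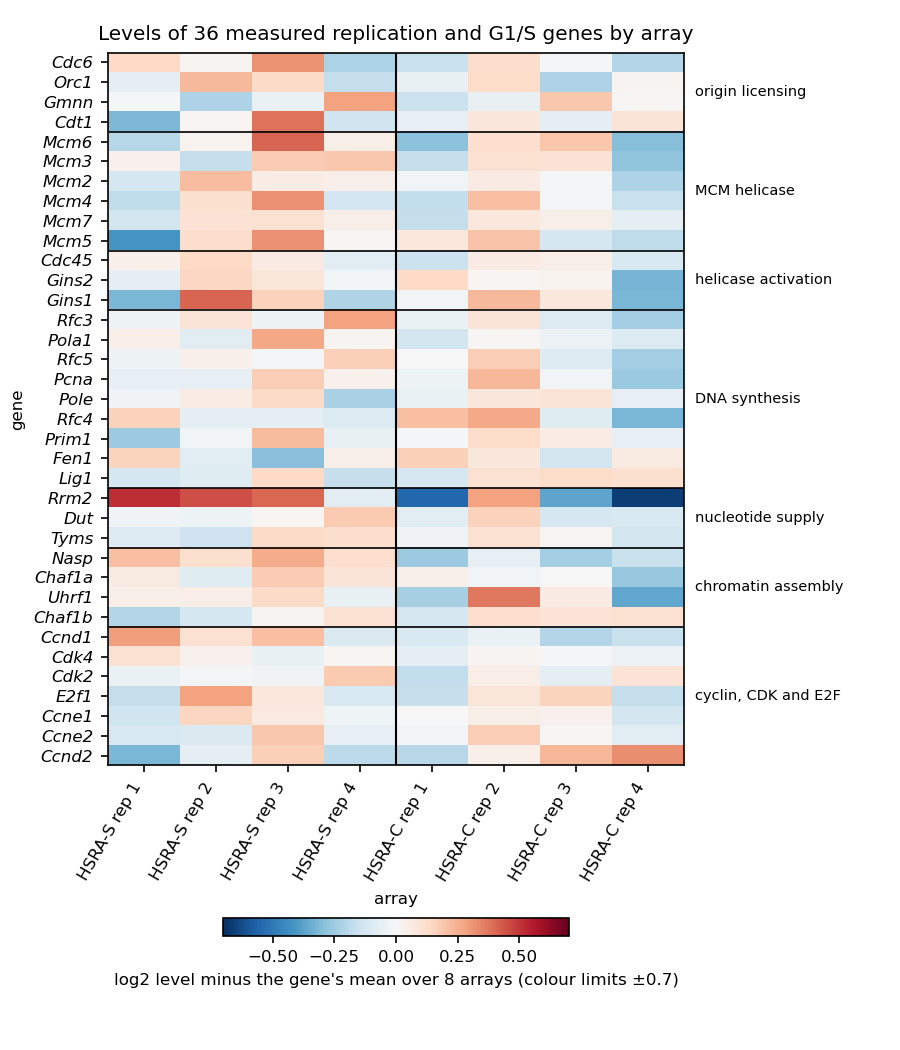
Log2 level of the 36 measured genes minus each gene's mean over the 8 arrays (colour, red above and blue below; rows are genes by role, columns arrays, the line separates the groups). HSRA-S replicate 3 and HSRA-C replicate 2 are mostly red and HSRA-C replicate 4 mostly blue, while Rrm2 and Nasp are the rows with the clearest step between the groups.

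Genes of later cell cycle stages gave other values in the same samples. Of 27 tested genes of a mitosis list, 26 were on the higher side in HSRA-S with a median log2 difference of 0.42, and 13 had an unadjusted p under 0.05, although 0 passed over all genes. Over all genes 55.5% were higher, and 7.36% were higher with an unadjusted p under 0.05. Mki67, the Ki-67 antigen of cycling cells, was at 8.07, 8.14, 8.03 and 7.37 in HSRA-S and at 6.94, 7.91, 7.15 and 6.97 in HSRA-C (difference 0.66, SE 0.23; limma adjusted p = 0.358). Top2a, the topoisomerase that untangles chromosomes, differed by 0.68 (SE 0.23), the cyclin Ccnb1 by 0.70 (SE 0.23) and the spindle motor Kif11 by 0.39 (SE 0.11). Mki67, Top2a, Ccnb1 and Rrm2 have the same samples on top, HSRA-S replicates 1 to 3 and HSRA-C replicate 2, while Kif11 was higher in all 4 HSRA-S samples than in any control. In HSRA-S replicate 1 the mitosis genes lay 0.45 above their means and the replication and G1/S genes 0.04 below theirs. Without HSRA-C replicates 3 and 4, 26 of 27 mitosis genes were still higher, with a median of 0.29. In that fit 0 of them had a limma unadjusted p under 0.05, where 4.85% of all genes did, against 12.1% with all arrays. It rests on fewer controls, and Top2a differed by 0.61 in it with a wider SE of 0.31. The difference between the replication and the mitosis genes was not tested.

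**Figure D4:**
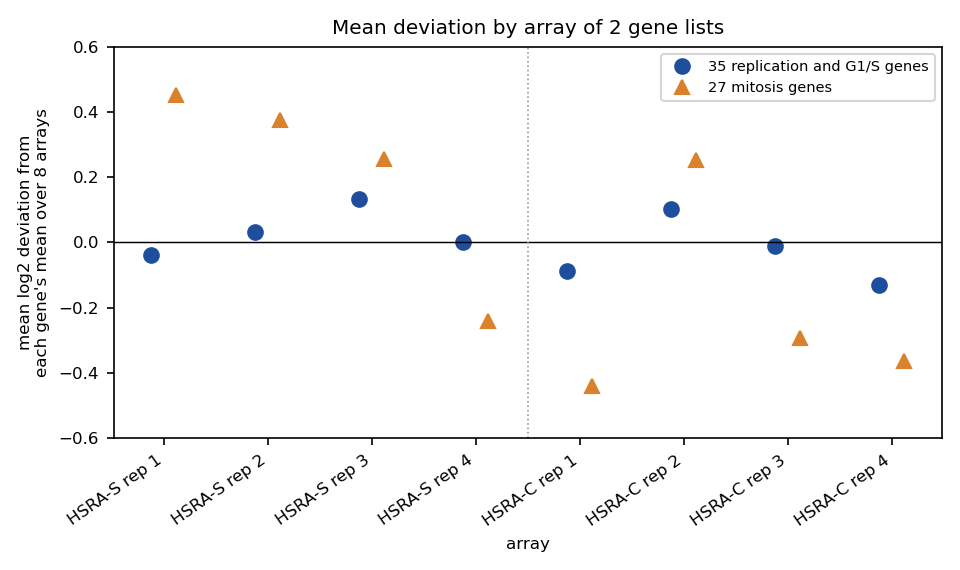
Mean log2 deviation (y axis) from each gene's mean over the 8 arrays, for the 35 tested replication and G1/S genes (circles) and 27 mitosis genes (triangles), by array (x axis; the dotted line separates the groups). The circles stay between -0.13 and 0.13 while the triangles run from -0.44 to 0.45, and the lists part most in HSRA-S replicate 1.

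Other genes of the pathway were examined from lists chosen by function, also with earlier results of these data known. Of 38 tested replication factors outside the set, 29 were higher and 9 lower in HSRA-S, with a median difference of 0.03, 0 past adjustment in either direction, and 3 at an unadjusted p under 0.05, where 12.1% of all genes and 7.36% on the higher side had one. With HSRA-C replicates 3 and 4 left out, 24 of 38 were higher, the median was 0.01, and 2 had an unadjusted p under 0.05. The 3 genes in the full set of arrays were Dbf4, the activator of the Cdc7 kinase that fires origins (0.45, SE 0.13), Orc6, an origin recognition subunit (0.24, SE 0.077), and Topbp1, a scaffold for loading Cdc45 (0.21, SE 0.083). Rpa3, a subunit of the protein that coats single-stranded DNA, differed by 0.16 (SE 0.073). Orc6 was at 5.21, 4.92, 5.07 and 4.89 in HSRA-S and at 4.82, 4.80, 4.76 and 4.75 in HSRA-C, with all solitary kidneys above all controls. Leaving out the same controls, Dbf4 differed by 0.46 (limma unadjusted p = 0.0350), Orc6 by 0.21 (0.0787) and Topbp1 by 0.13 (0.211).

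Among 19 tested regulators of the RB and E2F pathway and CDK inhibitors, 12 were higher and 7 lower, with a median of 0.04. Of these 0 passed adjustment and 1, E2f6, had a limma unadjusted p under 0.05. In the fit leaving out HSRA-C replicates 3 and 4, 13 of the 19 were higher with a median of 0.08, and 1 gene, Myc, had an unadjusted p under 0.05. For this paragraph and the next, the background over all genes was 55.5% higher and 12.1% at an unadjusted p under 0.05. Without HSRA-C replicates 3 and 4 it was 55.2% and 4.85%. The repressor E2f6 differed by 0.24 (SE 0.078), E2f5 by 0.12 (SE 0.065), and Cdkn1b, the inhibitor p27 of resting cells, by -0.15 (SE 0.067). Cdkn1a, the inhibitor p21, was at 6.28, 5.94, 5.80 and 5.36 in HSRA-S and at 4.85, 5.89, 5.46 and 5.55 in HSRA-C (difference 0.41, SE 0.23; limma adjusted p = 0.499). In 8 tested targets of p53, which include Cdkn1a, 5 were higher with a median of 0.07. Of these targets 0 passed adjustment and 1, Ccng1, had a limma unadjusted p under 0.05. Ccng1 differed by 0.21 (SE 0.082), Mdm2 by 0.15 (SE 0.074) and Bax by 0.07 (SE 0.066). When HSRA-C replicates 3 and 4 were left out, 6 of the 8 targets were higher, with a median of 0.07. Mdm2 then differed by 0.23 (SE 0.086) and was the 1 target at a limma unadjusted p under 0.05.

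Of 9 other genes of nucleotide synthesis 5 were higher, with a median of 0.07. The folate enzyme Shmt1 differed by 0.22 (SE 0.11), the dNTP hydrolase Samhd1 by 0.16, and the pyrimidine enzymes Cad by -0.095 and Umps by 0.11. After HSRA-C replicates 3 and 4 were left out, 5 of 9 were higher with a median of 0.03, and Umps was at -0.0082. Of 12 other chromatin genes 8 were higher, with a median of 0.09, and without those controls 6 of 12 were higher, with a median of 0.0026. Tmpo, a protein of the nuclear lamina, differed by 0.11, the histone acetyltransferase Hat1 by 0.10, the chromatin protein Hmgb2 by 0.23 and the histone chaperone Anp32e by 0.17. None of these 21 genes passed the adjusted test (0 in both lists) or had an unadjusted p under 0.05 (0 in both lists) by limma.

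Of the markers of leukocytes, which can divide in tissue, 11 of 11 tested genes were higher in HSRA-S (median 0.28, 0 past adjustment, 3 at a limma unadjusted p under 0.05). Without HSRA-C replicates 3 and 4, 11 of 11 were higher (median 0.21, 2 at an unadjusted p under 0.05). For this list and those below, the background over all genes was 55.5% higher, and 7.36% higher with an unadjusted p under 0.05. Without those controls 55.2% were higher, and 4.85% had an unadjusted p under 0.05 in either direction. The list means were 5.58, 5.54, 5.44 and 5.19 in HSRA-S and 5.19, 5.28, 5.18 and 5.01 in HSRA-C. C1qc differed by 0.47 (SE 0.11), Cd4 by 0.50 (SE 0.14), C1qb by 0.37 (SE 0.15) and C1qa by 0.43 (SE 0.20). Erythroid genes had list means from 5.12 to 5.46 in HSRA-S and from 4.67 to 5.47 in HSRA-C, and 4 of 4 were higher in HSRA-S (median 0.25). Without HSRA-C replicates 3 and 4, 3 of these 4 were higher (median 0.06). The list means of nephron progenitor genes ran from 4.58 to 4.68 in HSRA-S and from 4.52 to 4.66 in HSRA-C. Among the tested genes, 2 of 4 for nephron progenitors, 4 of 6 for fat and 1 of 3 for the adrenal were higher in HSRA-S. These became 4 of 4, 3 of 6 and 2 of 3 without HSRA-C replicates 3 and 4, with medians of 0.07, 0.07 and 0.02. Fat genes ran from 4.45 to 4.61 in HSRA-S and from 4.44 to 4.69 in HSRA-C, and adrenal genes from 4.77 to 4.91 in both. The adrenal means combine opposite directions: Cyp11b1 differed by -0.26 (SE 0.079), Cyp17a1 by 0.30 (SE 0.11) and Star by -0.06 (SE 0.069). These values were -0.21, 0.19 and 0.02 without HSRA-C replicates 3 and 4. Of the 8 genes listed for the proximal tubule 7 stood on the higher side in HSRA-S, with a median of 0.17 and 3 at an unadjusted p under 0.05 by limma (0 past adjustment), and their list means ran from 10.2 to 10.7 in HSRA-S and from 9.98 to 10.2 in HSRA-C. The groups did not overlap in the glucose transporter Slc2a2, with a difference of 0.75 (SE 0.19), and in the amino acid transporter subunit Slc7a7, with one of 0.69 (SE 0.20). In the absence of HSRA-C replicates 3 and 4 these were 0.56 and 0.38. In that fit 5 of 8 genes were higher, the median was 0.09, and 1 had a limma unadjusted p under 0.05. The part of these cell types in the member values was not tested.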

How the data were processed

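Per the submitters' processing notes the deposited values are RMA summaries, which are corrected for background and set to equal distributions between arrays. They are intensities on a linear scale, as the deposited values themselves show (array medians of 30.8 to 32.3), and RMA compresses differences of dim genes. Of 29214 probe sets, 18644 carried exactly 1 gene symbol in the platform annotation, and all 36 measured members matched RefSeq (GRCr8) by gene ID with 0 symbols changed. Log2 was taken, the brightest probe set represented a gene, and the dimmest 20% of 17245 genes (log2 mean below 3.63) were left out. The groups were compared with limma 3.58.1 in R 4.3.3 (lmFit and eBayes, no covariate), and p-values of all 13796 genes were adjusted together by Benjamini-Hochberg, with a threshold of 0.05. The steps were tested on simulated data with independent noise and planted changes of 1.5-fold or more. That test does not cover smaller differences or shifts that many genes share on an array.

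The members and lists were chosen with earlier results of these data known, so counts over them are descriptions. Values in every sample are printed for the member of smallest p in each role and for members on the lower side, and the up to 4 genes of smallest p are named in each other list of the pathway, mitosis and leukocytes. Rrm1, Tk1 and Ccnd3 were not analysed here. The number of arrays, 4 per group, limits the precision. Each p-value sets a group difference against the spread between these samples, moderated over all genes. The alternatives tried were other filters on dim genes, probe set rules, variance models, scaling, a replicate block, and fits with samples left out.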

Additional observations from a re-analysis of the deposited data

Results flagged for a closer look

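In 5 of 72 groups of 4 samples (36 genes in 2 groups), 1 sample lay far from the other 3 beyond Dixon's 95% limit for groups of this size. Chance alone gives about 1 in 20 such groups. Rfc4 was at log2 5.27 in HSRA-S replicate 1, against 5.01 to 5.03 in the other HSRA-S samples. Cdk2 was at 6.69 in HSRA-S replicate 4, against 6.47 to 6.50 in the others. Dut was at 7.0 in HSRA-C replicate 2, against 6.72 to 6.77 in the other controls. In Lig1 and Chaf1b the sample apart was HSRA-C replicate 1, at 6.60 and 4.35, while the other controls reached up to 6.84 (HSRA-C replicate 3) in Lig1 and 4.59 (HSRA-C replicate 2) in Chaf1b.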

How the results depend on the processing

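In all 17 alternative settings 0 members passed at an adjusted p under 0.05, and 16 of 35 members kept the sign of their difference in every setting that tested them, Nasp, Rrm2, Ccnd1 and Ccnd2 among them. The setting that moved the set most was leaving out HSRA-C replicates 3 and 4 together, with 17 members higher in place of 26 and a median of -0.0048; there Mcm5 was at -0.13, Orc1 at -0.0048, Gins2 at -0.038, Pcna at -0.076, Rfc5 at -0.048, Tyms at -0.035, Dut at -0.013, Uhrf1 at -0.028 and Ccne1 at -0.0065. With array weights Cdt1 was at 0.032 and Gmnn at -0.086, and with the mean over probe sets Fen1 was at 0.019. With the dimmest 50% left out 13 of 16 members still tested were higher, fewer because fewer were tested. Of all genes still tested there, 4861 of 8623 were higher. Leaving out 1 sample at a time gave 3 to 5 members at an unadjusted p under 0.05 (5 without HSRA-S replicate 3). It gave 19 to 28 members higher (19 without HSRA-C replicate 4) and medians of 0.012 to 0.095. Over all genes these fits gave 7.32% to 14.1% at an unadjusted p under 0.05 (12.3% without HSRA-S replicate 3). Between 6977 and 7931 of 13796 genes were higher in them (7584 without HSRA-C replicate 4). The causes of these changes were not tested. Over the same fits the differences ran from -0.035 to 0.14 in Mcm4, -0.089 to 0.16 in Mcm5, -0.0029 to 0.13 in Orc1, -0.16 to 0.072 in Cdt1, -0.092 to 0.074 in Gmnn, -0.021 to 0.13 in Gins2, -0.14 to 0.022 in Prim1, -0.083 to 0.037 in Pole, -0.037 to 0.13 in Pcna, -0.15 to 0.046 in Rfc4, -0.029 to 0.064 in Tyms, -0.024 to 0.22 in Uhrf1, -0.017 to 0.079 in Ccne1, -0.11 to 0.0066 in Ccne2, -0.0036 to 0.090 in Cdk2 and -0.045 to 0.10 in E2f1. The samples share only a replicate number: the deviations of same-numbered samples correlated at -0.068, 0.070, 0.13 and -0.11. With the replicate block 0 members passed, 3 had an unadjusted p under 0.05 and 26 were higher, as without it. Of all genes in the block fit 11.5% had an unadjusted p under 0.05, and 7651 of 13796 were higher. Over all genes, 1 passed with array weights, with the intensity trend and robust prior, and with the dimmest 50% left out, against 0 in the main setting.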
